A study of Mus musculus with 50 samples.

Results

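Genes of macrophage identity and of efferocytosis, the uptake of dying cells, were followed in fat and muscle. They were chosen by symbol, namely Mertk, Axl, Gas6, Cd163, Mrc1, Adgre1, Csf1r, C1qa, C1qb and C1qc. They are 10 of the 52338 gene identifiers that all 3 count tables share, and each was found in each table. Counts came from 3′ mRNA sequencing, which reads the ends of polyadenylated transcripts, of 50 libraries. All mice were males with hM3Dq, an engineered receptor that lets clozapine N-oxide (CNO) activate the cells that carry it, and all received CNO at 1 mg/kg. TG mice also carried a Cre recombinase under Gfral, a hindbrain receptor gene, and WT mice were Cre-negative, so both genotypes had CNO and nothing here compares it with no drug. The groups were quadriceps muscle of clamped mice (10 TG, 10 WT), white adipose tissue of the perigonadal depot (pgWAT) 1 h after CNO (9 TG, 9 WT) and pgWAT 6 h after CNO (6 TG, 6 WT). The sources used here give no ages.

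Macrophages of fat and muscle clear dying cells. The receptor tyrosine kinases MERTK and AXL take part by binding phosphatidylserine on those cells through the bridging ligand GAS6. Protein S also bridges MERTK. CD163 takes up haemoglobin bound to haptoglobin, and the mannose receptor MRC1 binds glycans. ADGRE1, known as F4/80, and CSF1R, the receptor of the growth factors CSF1 and IL34, are common marks of mouse macrophages. C1QA, C1QB and C1QC form C1q, the first component of the classical complement pathway, which is made largely by macrophages and coats debris for uptake. Axl and Gas6 are also expressed by fibroblasts and vascular cells, so those transcripts need not come from macrophages in whole tissue.

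In pgWAT 6 h after CNO, Mertk was 2.57-fold and Cd163 1.74-fold higher in TG than in WT libraries, and these were the only 2 of the 10 genes past the threshold in that set. The other 8 lay between 0.935-fold and 1.14-fold. In pgWAT 1 h after CNO and in quadriceps none of the 10 passed. In bulk tissue, a change in the number of macrophages and a change in RNA per cell cannot be told apart from a gene's level alone. Nor does a level show which cells made the transcript, and for Mertk and Cd163 this was not tested.

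On GRCm38 with the GENCODE vM21 annotation, Mertk is on the plus strand of chromosome 2, 128698956 to 128802894, and Cd163 on the plus strand of chromosome 6, 124304656 to 124330527. The C1q genes are neighbours on the minus strand of chromosome 4, with C1qb at 136880129 to 136886187, C1qc at 136889804 to 136893065 and C1qa at 136895917 to 136898803. The 250 bases before the start were read from RefSeq on GRCm38.p6, where 7 of the 10 genes had a window. The sequences shown are those of the 2 genes that were higher at 6 h and, beside them, a C1q gene that was not called. The windows are chr2:128698665-128698914 on the plus strand for Mertk, chr6:124304401-124304650 on the plus strand for Cd163 and chr4:136886201-136886450 on the minus strand for C1qb, written 5′ to 3′, and capitals mark a glucocorticoid receptor half-site.
Mertk: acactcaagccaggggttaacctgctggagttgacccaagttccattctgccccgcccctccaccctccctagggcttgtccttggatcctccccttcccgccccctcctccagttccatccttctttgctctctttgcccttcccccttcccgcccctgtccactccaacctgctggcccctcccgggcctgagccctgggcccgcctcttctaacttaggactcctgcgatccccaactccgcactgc
Cd163: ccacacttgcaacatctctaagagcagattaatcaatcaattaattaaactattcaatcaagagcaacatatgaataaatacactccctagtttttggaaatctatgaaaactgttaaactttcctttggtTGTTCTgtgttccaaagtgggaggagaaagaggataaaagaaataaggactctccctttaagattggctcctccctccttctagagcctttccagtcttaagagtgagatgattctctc
C1qb: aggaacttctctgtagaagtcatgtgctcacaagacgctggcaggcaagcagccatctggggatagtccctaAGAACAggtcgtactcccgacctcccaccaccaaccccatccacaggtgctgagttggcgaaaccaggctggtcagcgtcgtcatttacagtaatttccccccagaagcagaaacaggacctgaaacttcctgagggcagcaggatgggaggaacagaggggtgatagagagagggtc
The half-site was searched as TGTTCT on both strands (AGAACA on the other), and 16.1% of 32851 such windows held it. It lay 119 to 114 bases before the start of Cd163 and 178 to 173 bases before that of C1qb, and these letters did not occur in the Mertk window. The full receptor site (AGNACA and TGTNCT 3 bases apart, 0.0609% of windows), the direct repeat of liver X receptors (AGGTCA again after 4 bases, 0.0152%) and the PU.1 site GAGGAAGT (2.44%), each on both strands, were not found in these 3 windows. The Mertk window was 63.6% G and C, the C1qb window 55.2% and the Cd163 window 36.8%, against a median of 52.4% over all windows. A full receptor site may contain the half-site, so those searches overlap. These matches describe letters only.

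Quadriceps libraries held 959980 to 2613672 gene counts, pgWAT libraries 976610 to 4852560 at 1 h and 9150496 to 12883462 at 6 h. Levels are given in CPM, a gene's count scaled to a common library total adjusted by the TMM factor of edgeR. The upper limit for a gene with none was taken as 3 counts (counting error only), scaled without that factor. It was 1.15 to 3.13 CPM, 0.618 to 3.07 CPM and 0.233 to 0.328 CPM in these sets. The tissue labels were checked against fixed markers. The 6 skeletal muscle markers summed to 32757 CPM or more in every quadriceps library, and the 6 adipocyte markers to 6862 CPM or more in every pgWAT library. Gfral is a hindbrain gene and cannot check the genotype labels here. At 1 h, TG 9 and WT 9 were extreme in marker sums. Their summed 12 macrophage markers were the highest of the 18 libraries, at 2595 CPM in TG 9 and 1770 CPM in WT 9 (set median 1249), and so were their fibroblast and progenitor markers, at 7032 and 4357 CPM (median 2817). At 6 h, TG 1 had the highest sum of macrophage markers of 12 libraries (2567 CPM, median 1609) and the lowest of adipocyte markers (14687 CPM, median 20692). It also had the highest sums of neutrophil (90.3 CPM, median 36.1) and dendritic cell markers (49.3 CPM, median 23.7). Transcripts of the liver reached 9494 CPM in TG 3 at 1 h and 1459 CPM in TG 2 at 6 h, and heat shock transcripts 2793 CPM in WT 2 and 1554 CPM in WT 10 of quadriceps.

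Of Mertk, Axl and Gas6, Mertk was the one called in pgWAT at 6 h. Its level in the 6 TG libraries ran from 160.0 to 195 CPM with a median of 183 CPM, against 60.1 to 81.3 CPM with a median of 68.8 CPM in the 6 WT libraries. Every TG library lay above every WT library, and the lowest TG library, TG 1, was still well clear of the highest WT library, WT 2. The means were 179.7 ± 12.2 CPM in TG and 69.8 ± 8.19 CPM in WT (SD, n = 6 each), a log2 difference of 1.36 (SE 0.08, 95% interval 1.2003 to 1.53). The quasi-likelihood test of edgeR gave an adjusted p (Benjamini-Hochberg, 14359 genes) of 2.96e-09, the 9th smallest p in the set. Gm14011, an antisense gene at 128751271 to 128753705, overlaps an exon of Mertk, and whether counting used strand was not given. Reads in that overlap cannot be told apart. It lies away from the 3′ end of Mertk at 128802894.

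Axl, the related receptor, ran from 109 to 156 CPM in TG libraries (median 127 CPM) and from 121 to 144 CPM in WT libraries (median 127 CPM). The WT range lay inside the TG range. The log2 difference was 0.00 (SE 0.08, interval -0.17 to 0.17, adjusted p = 0.985 by edgeR). Gas6, the ligand of both receptors, ran from 143 to 219 CPM in TG libraries (median 209 CPM) and from 173 to 231 CPM in WT libraries (median 199.9 CPM), with the lowest value in TG 3. Its log2 difference was -0.03 (SE 0.10, interval -0.25 to 0.18, adjusted p = 0.872 by edgeR). Tmem255b, on the other strand and reaching to 13468473, overlaps an exon of Gas6 and takes in its 3′ end at 13465374. Reads in that overlap cannot be told apart without a known strand setting.

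Cd163, the haemoglobin scavenger receptor, was also higher at 6 h. It ran from 87.3 to 146 CPM in TG libraries (median 113 CPM), against 59.9 to 79.4 CPM in WT libraries (median 61.8 CPM). All 6 TG libraries were above all 6 WT libraries, but the gap was narrow, between TG 5 at 87.3 CPM and WT 4 at 79.4 CPM. The means were 115.5 ± 21.7 CPM in TG and 66.4 ± 8.76 CPM in WT (SD, n = 6 each), a log2 difference of 0.80 (SE 0.12, interval 0.55 to 1.05) with an adjusted p of 2.5e-04 by edgeR and rank 350 by p. The TG libraries spread more for Cd163, with a coefficient of variation of 18.8%, than for Mertk, with 6.80%.

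Mrc1, the mannose receptor that is often read together with Cd163, was not called. Its level ran from 82.1 to 165 CPM in TG libraries (median 98.7 CPM) and from 76.6 to 114 CPM in WT libraries (median 97.8 CPM). The groups overlapped, and TG 1 stood above all others at 165 CPM, with no other library over 114 CPM. The log2 difference was 0.14 (SE 0.16, interval -0.21 to 0.48, adjusted p = 0.641 by edgeR).

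The identity marks Adgre1 and Csf1r did not pass at 6 h either. Adgre1 ran from 21.8 to 41.9 CPM in TG libraries (median 22.7 CPM) and from 20.5 to 33.2 CPM in WT libraries (median 29.8 CPM). The highest value was again in TG 1, while the 5 other TG libraries lay below 25.3 CPM and inside the WT range. Its log2 difference was -0.10 (SE 0.17, interval -0.46 to 0.26, adjusted p = 0.766 by edgeR), and without TG 1 it was -0.28 (adjusted p = 0.12). Csf1r ran from 162 to 259 CPM in TG libraries (median 197 CPM) and from 163 to 233 CPM in WT libraries (median 192 CPM), with TG 1 highest. Its log2 difference was 0.05 (SE 0.11, interval -0.18 to 0.28, adjusted p = 0.822 by edgeR). Hmgxb3, on the other strand from 61131277, overlaps an exon of Csf1r and takes in its 3′ end at 61132149. Reads in that overlap cannot be told apart without a known strand setting, also where Csf1r is the base of count ratios.

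For the 3 chains of C1q the libraries of both genotypes overlapped at 6 h, and TG 1 was the highest library for each. C1qa ran from 208 to 322 CPM in TG libraries (median 221 CPM) and from 189 to 253 CPM in WT libraries (median 229.96 CPM). C1qb ran from 164 to 279 CPM in TG libraries (median 169 CPM) and from 143 to 201 CPM in WT libraries (median 175 CPM). C1qc ran from 96.6 to 173 CPM in TG libraries (median 118 CPM) and from 105 to 137 CPM in WT libraries (median 127 CPM). In each case the TG median was below the WT median, while the means of C1qa and C1qb were higher in TG. The log2 differences were 0.08 for C1qa, 0.18 for C1qb and 0.00 for C1qc, with intervals that together spanned -0.24 to 0.47 and adjusted p-values of 0.666, 0.4221 and 0.986 by edgeR.

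Of the 10 genes, 2 were called at 6 h, both higher in TG, where 14.4% of all 14359 tested genes were called, 6.88% higher and 7.54% lower. The same 2 were the only ones whose TG and WT libraries did not overlap, against 7.66% of all tested genes in either direction and 3.93% with every TG library above every WT library. With library totals in place of TMM scaling the split of all calls moved from 988 higher and 1083 lower to 665 higher and 1463 lower, and Mertk and Cd163 remained called and higher in TG. The median log2 difference of the 10 was 0.06, beside 0.00 over all tested genes. For the 8 genes that were not called, the intervals lay between 0.729-fold and 1.40-fold. Without TG 1 these 8 ran from -0.28 to 0.06 in log2, Mertk was at 1.40 (adjusted p = 1.04e-09) and Cd163 at 0.80 (adjusted p = 8.04e-04 by edgeR). Without TG 2, the library with liver transcripts, Mertk was at 1.34 (adjusted p = 2.4e-08) and Cd163 at 0.72 (adjusted p = 3.42e-04 by edgeR).

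**Figure D1:**
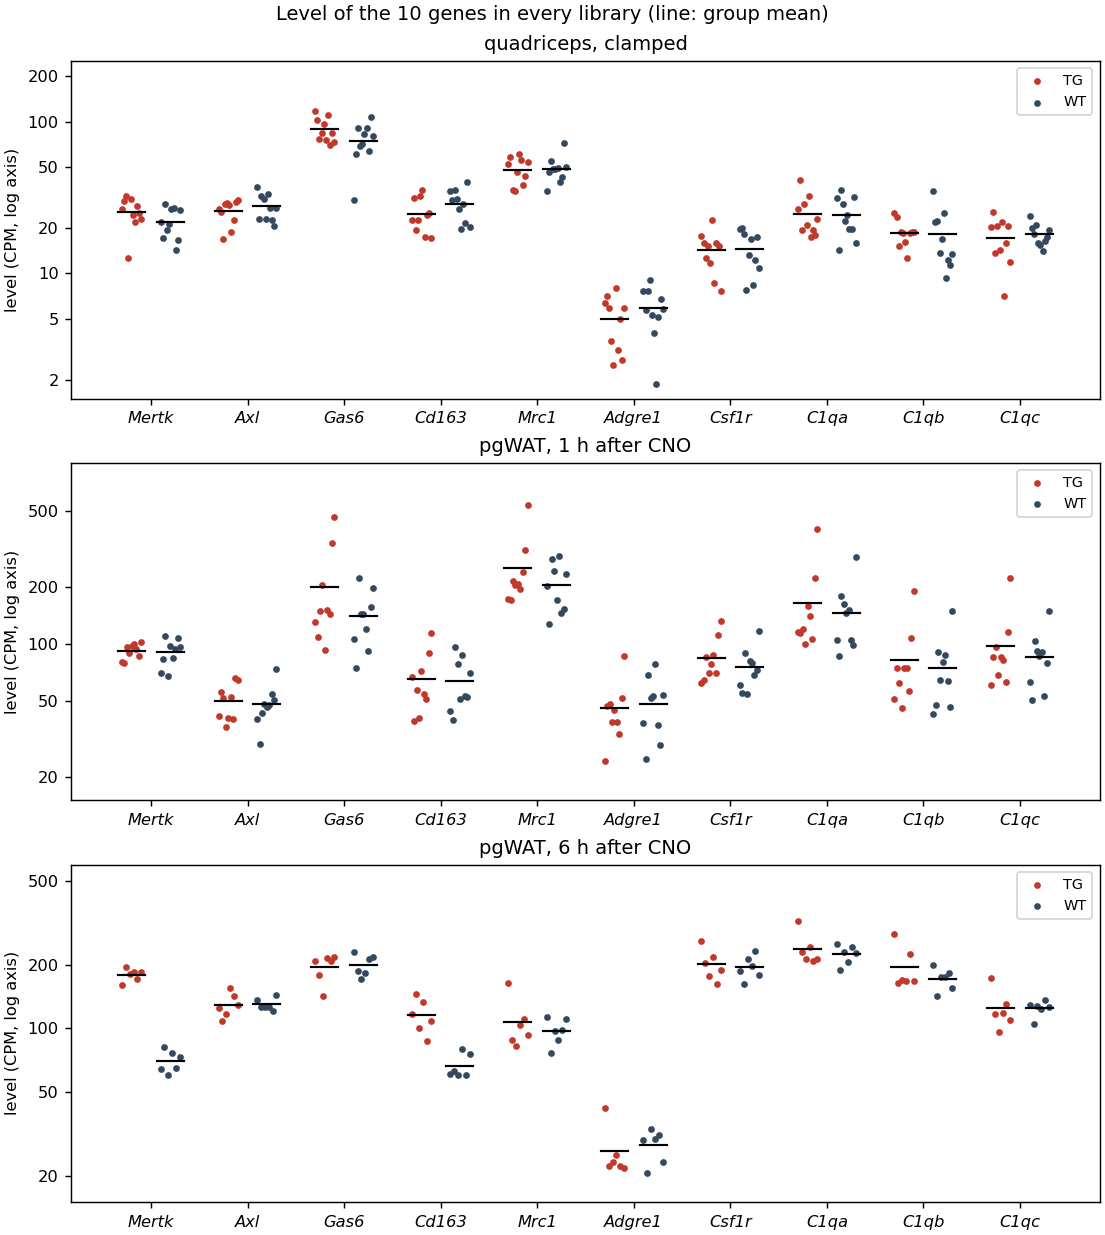
Level of each of the 10 genes in CPM on a log axis (tick marks in CPM), 1 point per library, TG in red to the left of WT in dark blue, with a line at the group mean, for quadriceps, pgWAT at 1 h and pgWAT at 6 h. Groups are apart for Mertk (160.0 to 195 against 60.1 to 81.3 CPM) and Cd163 (87.3 to 146 against 59.9 to 79.4 CPM) at 6 h and overlap in every other panel and gene.

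**Figure D2:**
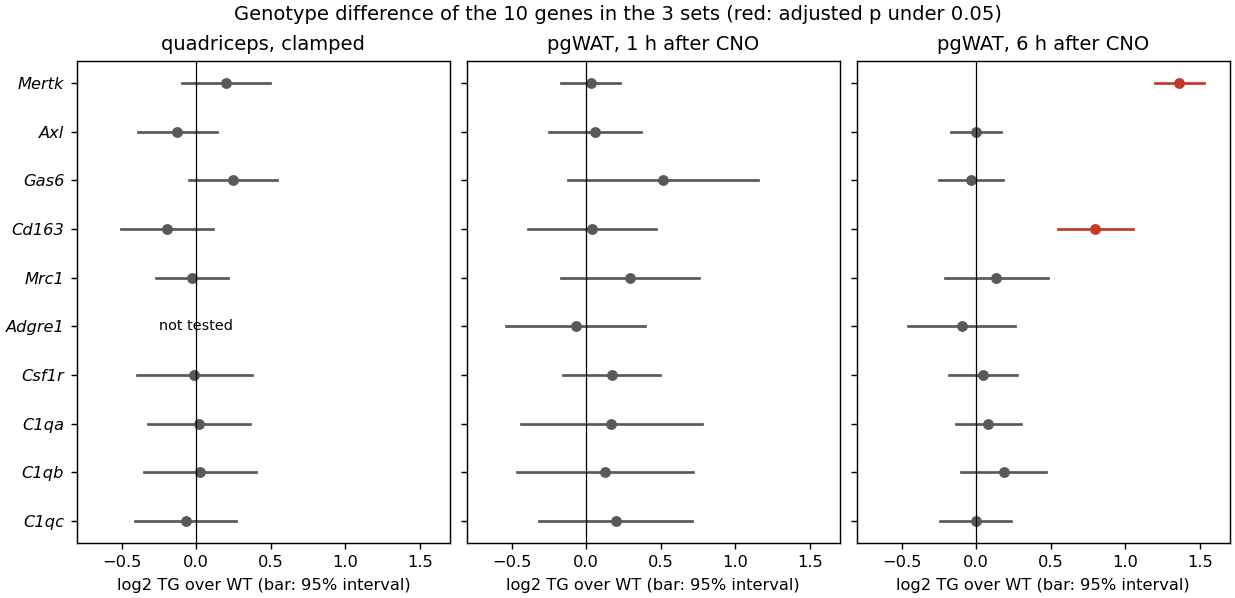
Log2 difference of TG over WT for each gene with its 95% interval, in the 3 sets, with red for an adjusted p under 0.05. Mertk (1.36) and Cd163 (0.80) at 6 h are the points in red, and Adgre1 in quadriceps has no point because it did not pass edgeR's filter on low counts.

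Ratios of counts within a library do not depend on how libraries are scaled. At 6 h, Mertk counts per 100 Csf1r counts ran from 61.7 to 106 in TG libraries (median 96.6) and from 27.7 to 49.9 in WT libraries (median 36.5). Per 100 Axl counts, Mertk ran from 119 to 179 in TG and from 47.0 to 64.3 in WT libraries. Per 100 C1qa counts it ran from 49.7 to 86.8 in TG and from 25.3 to 43.1 in WT libraries, so all 6 TG libraries were above all 6 WT libraries on each of the 3 scales.

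Cd163 per 100 Csf1r counts ran from 45.3 to 71.5 in TG libraries and from 25.6 to 42.1 in WT libraries, again with no overlap. Per 100 Mrc1 counts it ran from 71.4 to 166 in TG and from 53.2 to 90.6 in WT libraries, with 4 of 6 TG libraries above the highest WT library. C1qa per 100 Csf1r counts overlapped, at 112 to 128 in TG and 104 to 136 in WT libraries. In pgWAT at 1 h and in quadriceps the ratios of Mertk and of Cd163 to Csf1r overlapped between genotypes, with medians at 1 h of 124 in TG and 123 in WT for Mertk and of 73.2 in TG and 73.5 in WT for Cd163. Per 100 Axl counts, Mertk in quadriceps ran from 43.8 to 190 in TG libraries (median 103) and from 58.8 to 100 in WT libraries (median 80.2), with 5 of 10 TG libraries above the highest WT library, and at 1 h from 131 to 245 in TG and from 131 to 283 in WT libraries. Per 100 C1qa counts it overlapped in both sets, with 1 of 10 TG libraries in quadriceps and 0 of 9 at 1 h above the highest WT library. A ratio within a library shows unequal change and not which gene changed.

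**Figure D3:**
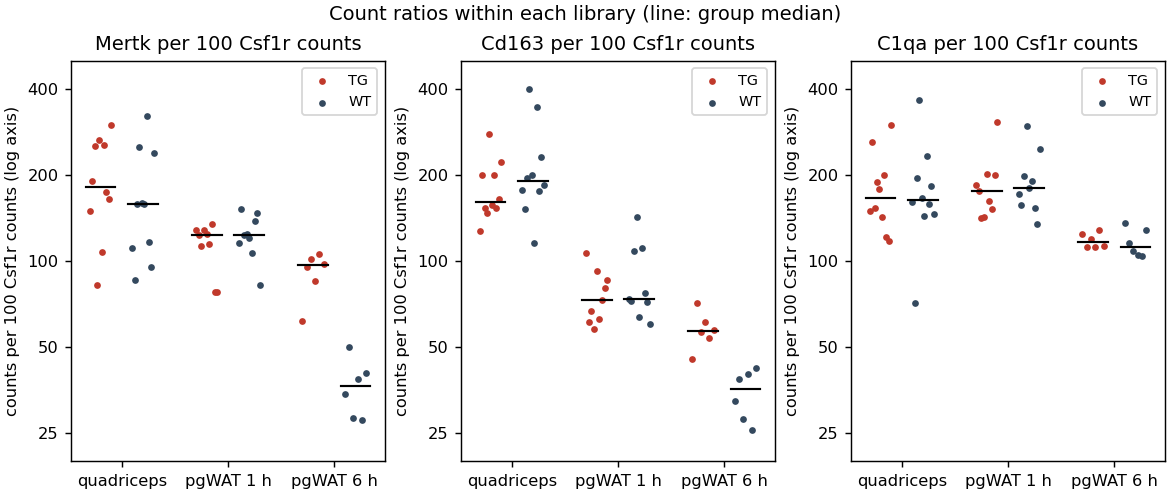
Counts of Mertk, Cd163 and C1qa per 100 Csf1r counts in each library on a log axis, TG in red to the left of WT in dark blue, with a line at the group median. At 6 h the 6 TG libraries are above the 6 WT libraries for Mertk (61.7 to 106 against 27.7 to 49.9) and Cd163 (45.3 to 71.5 against 25.6 to 42.1), while C1qa overlaps.

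The 10 genes did not vary together in the same way at the 2 times. Each of the other 9 was set against C1qb over libraries with the genotype means taken out, which gave 18 relations with Benjamini-Hochberg adjusted permutation p-values. At 1 h (n = 18) Pearson's r with C1qb was 0.95 for C1qa, 0.90 for C1qc, 0.87 for Csf1r, 0.79 for Adgre1 and 0.73 for Cd163 (adjusted permutation p from 1.8e-04 to 0.00282), with Spearman's rho from 0.73 to 0.91 (adjusted permutation p from 1.8e-04 to 0.00423). Mrc1 and Axl followed with r of 0.74 each and rho of 0.59 each (adjusted permutation p of 0.00328 and 0.00194 for r, 0.0269 for rho). Gas6 had r = 0.66 (adjusted permutation p = 0.00725) and rho = 0.47 (adjusted permutation p = 0.0838). Mertk had r = 0.35 (adjusted permutation p = 0.198) and rho = 0.40 (adjusted permutation p = 0.151). Without TG 9 and WT 9, the 2 libraries farthest from the median of C1qb, r was 0.87 for C1qa, 0.75 for C1qc, 0.73 for Csf1r, 0.79 for Adgre1, 0.69 for Cd163, 0.59 for Mrc1, 0.59 for Axl, 0.41 for Gas6 and 0.24 for Mertk. Levels in CPM share the library total, and TG 9 and WT 9 were also highest for fibroblast markers, whose part in these relations was not tested.

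At 6 h (n = 12) C1qc (r = 0.88, rho = 0.88), Mrc1 (r = 0.84, rho = 0.81) and Adgre1 (r = 0.80, rho = 0.62) went with C1qb, with adjusted permutation p-values for r of 0.00354, 0.00725 and 0.0129 and for rho of 0.00833, 0.0108 and 0.0553. C1qa had r = 0.71 (adjusted permutation p = 0.042) and rho = 0.50 (adjusted permutation p = 0.151). Without TG 1 and TG 5, the 2 farthest libraries, r was 0.70 for C1qc, 0.66 for Mrc1, 0.81 for Adgre1 and 0.71 for C1qa. Csf1r (r = 0.46), Gas6 (r = 0.33) and Axl (r = 0.08) had adjusted permutation p-values of 0.231, 0.418 and 0.871, rho of 0.28, 0.15 and 0.06, and r of 0.46, 0.25 and 0.06 without TG 1 and TG 5.

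With genotype means taken out, Mertk at 6 h had r = -0.74 and rho = -0.76 with C1qb (adjusted permutation p = 0.00328 and 0.00227). Cd163 had r = -0.32 and rho = -0.45 (adjusted permutation p = 0.428 and 0.235). Without TG 1 and TG 5, r was -0.71 for Mertk and -0.33 for Cd163. The relations of these 2 genes, and of no others, are also given within each genotype. They use the same libraries again and add no separate support. Levels in CPM share the library total, and TG 1, the library with most C1qb, had the highest macrophage and lowest adipocyte sums at 6 h. The part of these in the relations was not tested. At 6 h Mertk was lower in TG libraries with more C1qb. Within the 6 TG libraries r was -0.96 and rho -1.0, with exact permutation p-values of 0.00139 and 0.00278, the smallest that 720 pairings can give, and 0.00556 and 0.0111 after adjustment over 4 such relations. Within the 6 WT libraries r was -0.74 and rho -0.77 (exact permutation p = 0.0931 and 0.103, adjusted 0.186 and 0.206). Without the 2 farthest libraries r was -0.98 in TG and -0.46 in WT, over 4 libraries each. For Cd163 within TG r was -0.33 and rho -0.66 (exact permutation p = 0.493 and 0.175), and within WT r was -0.30 and rho -0.54 (exact permutation p = 0.551 and 0.297). Without the 2 farthest libraries of each genotype its r was -0.84 in TG and -0.58 in WT.

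**Figure D4:**
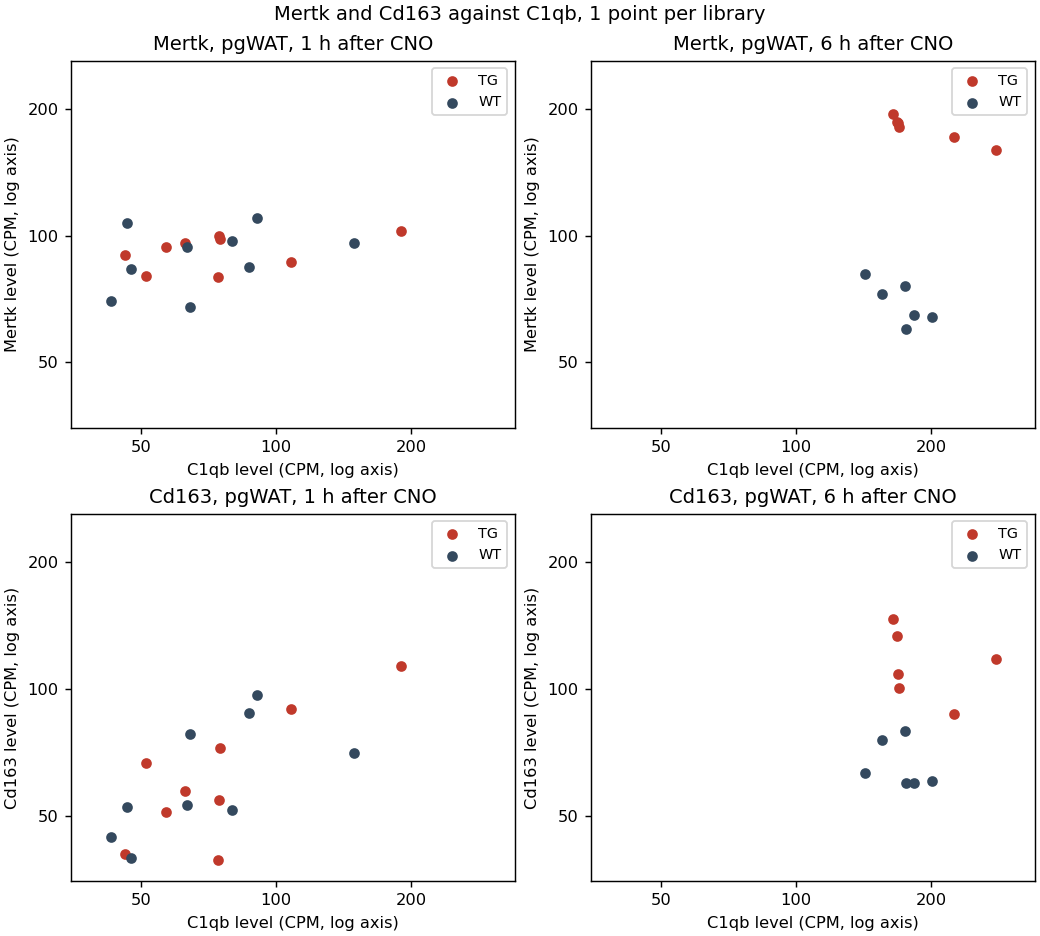
Level of Mertk (top) and Cd163 (bottom) against that of C1qb in pgWAT at 1 h (left) and 6 h (right), 1 point per library, TG red and WT dark blue, both axes in CPM on log scales. At 6 h the Mertk points form 2 separate groups, TG at 160.0 to 195 CPM and WT at 60.1 to 81.3 CPM, with the TG points lower at higher C1qb, whereas at 1 h the genotypes are mixed.

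In pgWAT 1 h after CNO, none of the 10 genes was called by edgeR, where 0.0722% of 11087 tested genes were. An unadjusted p under 0.05 by edgeR was found for none of the 10 and for 516 of all tested genes. DESeq2 also called 0 of the 10. No gene of the 10 had groups that did not overlap, against 0.0361% of tested genes. Mertk ran from 79.7 to 103 CPM in TG libraries (median 94.2 CPM) and from 67.8 to 110.2 CPM in WT libraries (median 94.2 CPM), so the TG range lay inside the WT range. Its log2 difference was 0.03 (SE 0.10, interval -0.17 to 0.23), the narrowest interval of the 10 in this set. Cd163 ran from 39.3 to 113 CPM in TG (median 57.2 CPM) and from 39.6 to 96.8 CPM in WT libraries (median 52.9 CPM). Its log2 difference was 0.04 (SE 0.21, interval -0.39 to 0.47).

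The remaining genes at 1 h varied more between libraries than between genotypes. Gas6, which had the largest log2 difference at 0.52 (SE 0.30, interval -0.12 to 1.16), ran from 92.7 to 466.2 CPM in TG libraries and from 74.2 to 223 CPM in WT libraries. Its 2 highest values were in TG 9 and TG 8, both above all WT libraries, and without TG 9 the log2 difference was 0.26. The C1q chains ran from 99.9 to 405 CPM in TG and from 86.3 to 287 CPM in WT libraries for C1qa, from 46.1 to 189 CPM in TG and from 42.9 to 149 CPM in WT for C1qb, and from 60.98 to 222 CPM in TG and from 50.9 to 148 CPM in WT for C1qc. TG 9 and WT 9 held the highest value of their genotype for each chain. The log2 differences of the chains were 0.17, 0.13 and 0.20, and without TG 9 they were -0.11, -0.12 and -0.04.

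Mrc1 ran from 170.3 to 542 CPM in TG and from 127 to 291 CPM in WT libraries at 1 h, and Csf1r from 62.6 to 132 CPM in TG and from 54.7 to 117 CPM in WT libraries. Axl ran from 36.6 to 66.3 CPM in TG and from 29.5 to 73.4 CPM in WT libraries, and Adgre1 from 24.1 to 86.6 CPM in TG and from 24.9 to 77.9 CPM in WT libraries. All 4 overlapped between genotypes. The adjusted p of each of the 10 genes by edgeR was 1.00, and the median log2 difference was 0.15, beside 0.01 over all tested genes. Without TG 9 and WT 9 the 10 ran from -0.20 to 0.35 with a median of 0.10, and without TG 9 alone from -0.23 to 0.26 with a median of -0.02.

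An interaction fit in edgeR over 13022 genes, of which 4.21% were called, compared the genotype difference at 6 h with that at 1 h in pgWAT. Mertk was called, with a genotype difference 1.33 larger at 6 h than at 1 h in log2 (SE 0.13, adjusted p = 1.03e-08). For Cd163 the interaction was 0.76 (SE 0.27, interval 0.20 to 1.31), with an unadjusted p of 0.0090 and an adjusted p of 0.126 by edgeR that missed the threshold. The other 8 lay between -0.55 and 0.06, and none was called. Kit and counting table changed together with time in these sets, so time and those cannot be told apart in the levels, and the interaction compares differences taken within each table. In WT libraries the mean level of Mertk was 69.8 CPM at 6 h and 90.1 CPM at 1 h, while that of Csf1r was 195 CPM at 6 h and 75.3 CPM at 1 h.

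In quadriceps 9 of the 10 genes passed edgeR's filter on low counts, and 0 were called by edgeR or DESeq2. By edgeR 2.04% of 8070 genes were called (1.1% higher in TG). An unadjusted p under 0.05 by edgeR was found for 0 of the 9 and for 946 of the 8070 genes. None of the 10 had groups that did not overlap, against 0.297% of tested genes. Mertk ran from 12.5 to 32.1 CPM in TG libraries (median 25.8 CPM) and from 14.4 to 28.7 CPM in WT libraries (median 21.5 CPM). The lowest library of all was TG 4. The log2 difference was 0.20 (SE 0.15, interval -0.09 to 0.50, adjusted p = 0.682 by edgeR). Cd163 ran from 17.0 to 35.4 CPM in TG (median 23.4 CPM) and from 19.5 to 39.98 CPM in WT libraries (median 29.7 CPM), with a log2 difference of -0.20 (SE 0.15, interval -0.50 to 0.11, adjusted p = 0.709 by edgeR).

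Gas6 had the largest difference in quadriceps, 0.24 in log2 (SE 0.14, interval -0.05 to 0.54, adjusted p = 0.558 by edgeR), with 70.2 to 117 CPM in TG and 30.5 to 107 CPM in WT libraries. Mrc1 ran from 34.96 to 61.2 CPM in TG and from 34.8 to 72.4 CPM in WT libraries, and Axl from 16.9 to 30.6 CPM in TG and from 20.4 to 36.98 CPM in WT libraries. Both overlapped. Csf1r ran from 7.64 to 22.6 CPM in TG and from 7.78 to 20.03 CPM in WT libraries, and the C1q chains lay between 7.05 and 41.1 CPM in TG and between 9.29 and 35.4 CPM in WT libraries. Adgre1 had 3 to 10 counts in TG and 2 to 14 counts in WT libraries and did not pass edgeR's filter on low counts. DESeq2, run without that filter, did not call it. The 9 tested genes had a median log2 difference of -0.01, beside 0.00 over all genes. Without WT 2 and WT 10, still 0 were called.

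Against quadriceps, the genotype difference at 6 h in pgWAT was larger by 1.16 in log2 for Mertk (SE 0.17, adjusted p = 3.3e-06) and by 0.99 for Cd163 (SE 0.20, adjusted p = 9.08e-04) in the interaction fit of edgeR over 10729 genes, of which 5.09% were called. No other of the 10 was called there. Tissue, kit and counting table differ together between these 2 sets.

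The genes most like Mertk, Cd163 and C1qb were taken as those with the highest Pearson correlation of log2 CPM over the 30 pgWAT libraries with the 4 group means taken out, among 9892 genes, as a description. For Mertk these included Nr1d2 (0.70), a nuclear receptor of the clock, Ccni (0.70), Usp22 (0.70), a deubiquitinase, and Zfp275 (0.68). Its own correlations with the other 9 genes ran from -0.04 for Mrc1 to 0.37 for Csf1r over both times. They differed in sign between times for some, with Csf1r at 0.60 and Mrc1 at 0.13 at 1 h, and Csf1r at -0.51 and Mrc1 at -0.65 at 6 h. For Cd163 they were F13a1 (0.83), the A chain of coagulation factor XIII, Samhd1 (0.81), Lsp1 (0.80), Ccl6 (0.79), a chemokine, and Sulf1 (0.78). At 6 h alone these 5 had r of 0.52, 0.24, 0.13, 0.10 and 0.24, and at 1 h alone 0.87, 0.89, 0.90, 0.89 and 0.85. For C1qb they were C1qa (0.93), C1qc (0.90), Fcgr3 (0.89), an Fc receptor, Fxyd5 (0.87) and Pirb (0.87). The libraries of a set share depth and tissue composition, and 18 of the 30 are from 1 h. For Axl, singled out after its values were seen, the nearest genes were Anxa8 (0.83) and Ecm1 (0.82).

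Genes of the same pathways were read from 9 lists with 100 genes that are not among the 10. At 6 h, 96 of these were tested and 4 were higher and 5 lower in TG, where 6.88% of all tested genes were called higher and 7.54% lower. Tyro3, the remaining receptor of the MERTK and AXL family, had a mean of 1.52 CPM in TG and 1.95 CPM in WT libraries, and Pros1, which encodes protein S, 82.7 CPM in TG and 82.8 CPM in WT libraries (adjusted p = 0.670 and 0.998 by edgeR). Of 12 tested efferocytosis receptors and bridging molecules 1 was lower, Scarf1, a scavenger receptor, at 5.50 ± 0.49 CPM in TG and 7.89 ± 1.08 CPM in WT (log2 -0.52, adjusted p = 0.0162 by edgeR). Of 13 genes of engulfment 1 was lower, Sirpa, the receptor of the signal CD47, at 47.5 ± 13.97 CPM in TG and 68.2 ± 9.99 CPM in WT (log2 -0.52, adjusted p = 0.0492 by edgeR, SD, n = 6 each). The list medians were -0.02 and -0.03 in log2.

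Of 10 genes of lipid handling after engulfment 2 were higher and 1 lower at 6 h. Abca1, a cholesterol exporter, was at 211 ± 27.8 CPM in TG and 173 ± 17.8 CPM in WT (log2 0.29), and Npc1, a lysosomal cholesterol transporter, at 53.997 ± 6.01 CPM in TG and 45.3 ± 3.69 CPM in WT (log2 0.25, adjusted p = 0.0331 and 0.0437 by edgeR). Pparg, a nuclear receptor of adipocytes and macrophages, fell to 84.9 ± 14.8 CPM in TG, against 171.5 ± 12.0 CPM in WT (log2 -1.01, adjusted p = 2.09e-06 by edgeR, SD, n = 6 each). The calls of Abca1, Npc1 and Sirpa were marginal. Abca1 was no longer called when WT 1, 3, 4 or 6 or TG 2 or 4 was left out, Npc1 when WT 1, 2, 3 or 4 or TG 3, 4, 5 or 6 was, and Sirpa when any library but WT 2 or TG 1 was, with adjusted p up to 0.0894, 0.158 and 0.129 over the alternatives. With library totals in place of TMM scaling, Abca1 and Npc1 were not called either. Npc1 and Sirpa were also lost without the filter on low counts, and Npc1 with replicate number as a block.

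None of the 20 other macrophage markers was called at 6 h by edgeR. An unadjusted p under 0.05 by edgeR was found for 3821 of all 14359 tested genes and for 2 of these markers. These were Cx3cr1, a chemokine receptor, at 3.06 ± 2.04 CPM in TG and 7.10 ± 3.67 CPM in WT (log2 -1.21, adjusted p = 0.0755), and Aif1 at 9.43 ± 4.23 CPM in TG and 15.1 ± 2.58 CPM in WT (log2 -0.68, adjusted p = 0.0939, SD, n = 6 each). Of the 14 markers of tissue-resident macrophages 1 was higher and 2 were lower. Lyve1, a hyaluronan receptor of resident macrophages and of lymphatic vessels, rose to 310 ± 29.4 CPM in TG, against 133 ± 31.9 CPM in WT (log2 1.22, SE 0.15, adjusted p = 8.34e-05 by edgeR). Its lowest TG library, at 273 CPM, was above its highest WT library, at 167 CPM. At 1 h Lyve1 was at 88.6 ± 26.7 CPM in TG and 66.4 ± 18.2 CPM in WT libraries (log2 0.43, unadjusted p = 0.0211, adjusted p = 1.00 by edgeR, n = 9 each).

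Cd209f, a C-type lectin, fell to 23.2 ± 8.25 CPM in TG, against 45.3 ± 11.6 CPM in WT (log2 -0.97, adjusted p = 0.0150 by edgeR), and Vsig4, a complement receptor of resident macrophages, to 2.81 ± 0.95 CPM in TG, against 5.26 ± 1.74 CPM in WT (log2 -0.89, adjusted p = 0.0359 by edgeR, SD, n = 6 each). Vsig4 was no longer called when WT 1, 3 or 4 or TG 3, 4, 5 or 6 was left out, with adjusted p up to 0.0905. None of the 9 tested lipid-associated markers and none of the 14 other complement genes was called by edgeR. None had an unadjusted p under 0.05 either, beside 3821 of all 14359 tested genes. In the CSF1 list Il34, the second ligand of CSF1R, was at 52.7 ± 6.42 CPM in TG and 40.9 ± 2.75 CPM in WT (log2 0.37, adjusted p = 0.00661 by edgeR), and Csf1 at 41.5 CPM in TG and 50.04 CPM in WT (adjusted p = 0.668). The list medians ran from -0.12 for resident markers to 0.10 for lipid-associated markers.

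**Figure D5:**
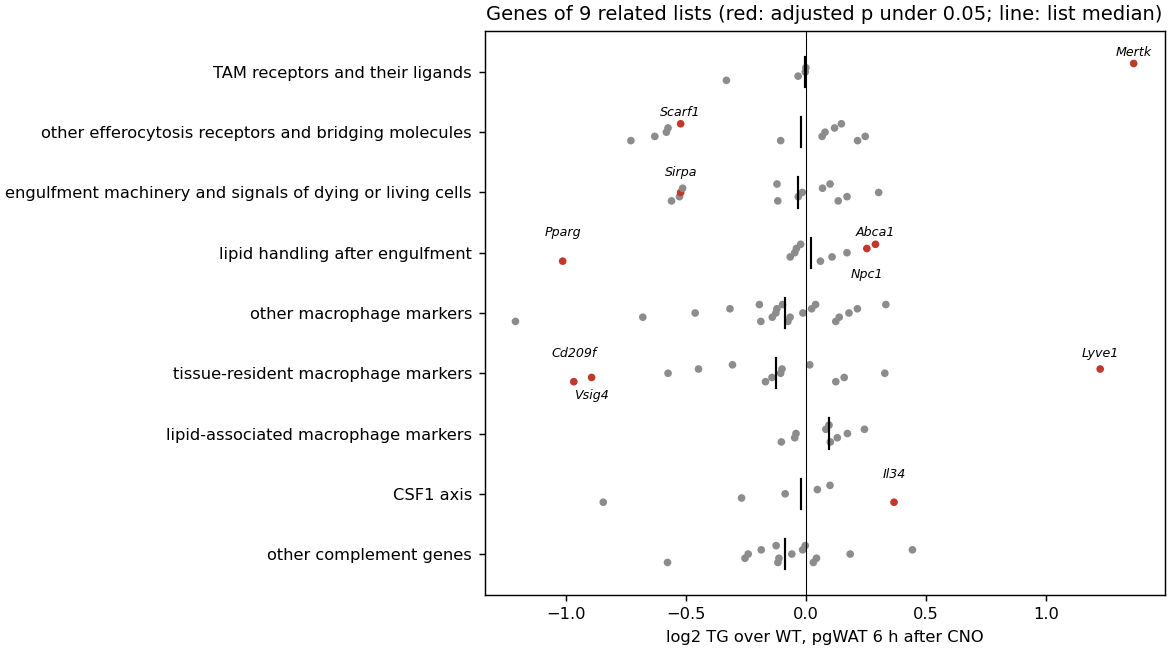
Log2 difference of TG over WT at 6 h in pgWAT for each tested gene of the 9 lists, 1 row per list, with a line at the list median and red for an adjusted p under 0.05 (genes named). Among the genes in red, Mertk (1.36) and Lyve1 (1.22) lie farthest right and Pparg (-1.01) and Cd209f (-0.97) farthest left, while the list medians are between -0.12 and 0.10.

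At 1 h 89 of the 100 genes were tested and 0 were called by edgeR, with 2 at an unadjusted p under 0.05. Over all 11087 tested genes 8 were called, with 516 at an unadjusted p under 0.05.

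Markers of other cell types were read beside these results. Over 10 lists with 45 tested genes at 6 h, 2 were higher and 6 lower in TG, beside the same 6.88% higher and 7.54% lower over all tested genes. The higher ones were Cidec, a lipid droplet protein (1 of 6 adipocyte markers), and Acta1, the actin of skeletal muscle (1 of 2 tested muscle markers). The lower ones were Tek and Egfl7 (2 of 6 endothelial markers), Nkg7 (1 of 3 tested lymphocyte markers), Mmp9 (1 of 3 tested neutrophil markers), Cd209a (1 of 5 tested dendritic cell markers) and Wt1 (1 of 5 mesothelial markers, lost without WT 1, TG 5 or TG 6, adjusted p up to 0.0607). By edgeR 0 of 33 tested markers were called at 1 h, with 0 at an unadjusted p under 0.05, and 0 of 23 in quadriceps, with 2. Over all tested genes 8 of 11087 were called at 1 h, with 516 at an unadjusted p under 0.05. In quadriceps 165 of 8070 were called, with 946.

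The summed levels of these lists mostly overlapped between genotypes. The adipocyte sum ran from 14687 to 22847 CPM in TG and from 16222 to 29011 CPM in WT libraries, and the endothelial sum from 582 to 838 CPM in TG and from 594 to 733 CPM in WT libraries. The neutrophil sum ran from 29.7 to 90.3 CPM in TG and from 29.1 to 61.4 CPM in WT libraries, with Ly6g at 0 in every library, and the dendritic cell sum from 18.6 to 49.3 CPM in TG and from 14.4 to 39.96 CPM in WT libraries. The mesothelial sum ran from 62.3 to 252 CPM in TG and from 103 to 212 CPM in WT libraries. The fibroblast and progenitor sum ran from 2822 to 3672 CPM in TG and from 2677 to 3198 CPM in WT libraries, the monocyte sum from 304 to 489 CPM in TG and from 338 to 434 CPM in WT libraries, and the mast cell sum from 20.9 to 39.4 CPM in TG and from 25.7 to 54.9 CPM in WT libraries. These also overlapped. The lymphocyte sum was low, from 5.30 to 10.5 CPM in TG and from 9.77 to 26.4 CPM in WT libraries, and the skeletal muscle sum, 61.95 to 119 CPM in TG and 21.3 to 50.2 CPM in WT libraries, did not overlap. The part of these cell types in the Mertk and Cd163 results was not tested. The 12 macrophage markers, 8 of which belong to the 10 genes, summed to 1488 to 2567 CPM in TG and 1302 to 1800 CPM in WT libraries at 6 h, with 0 of them at 0.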

How the data were processed

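Values are gene counts in 3 tables, deposited by the authors: quadriceps, pgWAT at 1 h and pgWAT at 6 h. Per the labels' protocols, libraries were made with 3′ QuantSeq kits, with molecular identifiers in some sets only, so the kit and the table differ together between sets. Per the submitters' processing notes, bcl2fastq 2.20.0.422, UMI-tools 1.1.2, cutadapt 1.18, STAR 2.7.10 and the builds GRCm39 and GRCm38 were used. Which build and annotation belong to which table, the counting tool, its strand setting and the collapse of identifiers are not given in the sources used here.

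Genes were joined between tables by identifier without version, and symbols came from the 6 h table. Lines that name no gene (5, 5 and 121) held on average 25.1%, 34.7% and 0.214% of counts and were left out. The deposited counts were fitted per table in R 4.3.3 with edgeR 4.0.16 (TMM scaling, filter on low counts, quasi-likelihood test, Benjamini-Hochberg adjustment over all tested genes, threshold 0.05), TG over WT. Interactions were fitted in 1 model over 2 tables. CPM scale each count to the library's total of gene counts multiplied by its TMM factor. The upper limits for a gene with no counts used the total of gene counts alone, without TMM factors. Alternatives were other scalings, no filter, DESeq2 1.42.0, a replicate block, the remainder of the library number, and leaving out single libraries or those that stood apart. Leaving out TG 9 and WT 9 at 1 h was chosen after the data were seen, as was the list of liver, duct and heat shock transcripts by which libraries were set apart. The libraries set apart were WT 2, 5, 6, 7, 8 and 9 and TG 3, 4 and 6 at 1 h. At 6 h it was TG 2, and in quadriceps WT 2 and WT 10. TG 9 at 1 h was kept in that fit. The fit was tested on simulated data.

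The 10 genes, the lists and the tests were chosen with earlier results of these data known. Other genes are named by a rule: up to 4 called genes of each list by smallest p, up to 2 where none was called, and the 5 genes most correlated with Mertk, Cd163 and C1qb. Some results that this rule names are not reported here. Deviations of same-numbered TG and WT libraries correlated over 0.1 in some pairs but not in every pair of any set, so numbers were not used as pairs. The labels do not say that replicates are separate mice, so the spread behind each p-value may be technical. No pair of replicates differed by as little as counting noise (smallest chi-square per degree of freedom 1.61), so none looked like the same library read again. Each was counted once, but this check cannot show that replicates are separate mice. One quadriceps library, TG 10, has a treatment entry that names 1 h, and its title was followed. Promoter windows are from RefSeq on GRCm38.p6 and positions from GENCODE vM21 on GRCm38.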

Additional observations from a re-analysis of the deposited data

Results flagged for a closer look

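In 60 groups of libraries, 1 per gene, set and genotype, 12 single libraries lay farther from the rest than Dixon's 95% value allows, where chance gives about 1 in 20 groups. In pgWAT at 1 h these were TG 9 for Mrc1 (542 CPM), Adgre1 (86.6 CPM), C1qa (405 CPM), C1qb (189 CPM) and C1qc (222 CPM), and WT 9 for C1qa (287 CPM) and C1qb (149 CPM). In pgWAT at 6 h they were TG 1 for Mrc1 (165 CPM), Adgre1 (41.9 CPM) and C1qa (322 CPM). In quadriceps they were TG 4 for Mertk (12.5 CPM) and WT 9 for Mrc1 (72.4 CPM).

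The difference between TG and WT itself differed between sets for Mertk, by 1.33 in log2 between pgWAT at 6 h and at 1 h and by 1.16 between pgWAT at 6 h and quadriceps, and for Cd163 by 0.99 between pgWAT at 6 h and quadriceps, each by the interaction test in edgeR.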

How the results depend on the processing

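The calls of Mertk and Cd163 in pgWAT at 6 h held under each alternative, including each left-out library, with log2 differences of 1.30 to 1.37 for Mertk and 0.72 to 0.80 for Cd163 outside the left-out single libraries. The number of genes called was 143 to 240 in quadriceps and 1858 to 2433 at 6 h over the alternatives, and 119 to 189 and 1666 to 2091 when single libraries were left out. At 1 h, where 8 genes were called, it was 5 with no filter, 23 by DESeq2, 5 with the replicate block and 3 with the remainder of the library number. It was 1 without the libraries set apart, which at 1 h were WT 2, 5, 6, 7, 8 and 9 and TG 3, 4 and 6. Without TG 9 and WT 9 it was 5, and without single libraries 3 to 12. The cause of these changes was not tested. With the replicate block 143, 5 and 1873 genes were called in quadriceps, at 1 h and at 6 h, against 165, 8 and 2071, and the same 2 of the 10 genes. Correlations of same-numbered libraries were over 0.1 in 3 of 10, 4 of 9 and 1 of 6 pairs, and not every library was closest to its own number.

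Sign changes touched genes that were not called. With libraries that stood apart left out, Axl at 6 h was 0.043, C1qc at 6 h 0.013, C1qa in quadriceps -0.10 and Csf1r in quadriceps 0.0092, and the interaction of 6 h and 1 h was 0.065 for Adgre1 and -0.28 for C1qb. Axl at 6 h was 0.000827 by DESeq2 and Csf1r in quadriceps 0.0085 with the replicate block. With library totals Csf1r at 6 h was -0.018 and Mertk at 1 h -0.0084. With the remainder of the library number C1qa, C1qb and Cd163 at 1 h were -0.0083, -0.0075 and -0.051, and without TG 9 and WT 9 Cd163 was -0.065. Over left-out single libraries at 1 h, log2 differences ran from -0.23 to 0.043 for Adgre1, -0.013 to 0.17 for Axl, -0.11 to 0.36 for C1qa, -0.12 to 0.33 for C1qb, -0.043 to 0.35 for C1qc, -0.091 to 0.14 for Cd163 and -0.012 to 0.070 for Mertk. At 6 h they ran from -0.062 to 0.043 for Axl, -0.022 to 0.12 for C1qa, -0.12 to 0.059 for C1qc, -0.036 to 0.10 for Csf1r, -0.073 to 0.044 for Gas6 and -0.026 to 0.20 for Mrc1. In quadriceps they ran from -0.094 to 0.085 for C1qa, -0.039 to 0.15 for C1qb, -0.15 to 0.025 for C1qc, -0.11 to 0.061 for Csf1r and -0.071 to 0.052 for Mrc1. Depth limits quadriceps most, where 3 counts are 1.15 to 3.13 CPM, scaled without TMM factors.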
